A study of Mus musculus with 18 samples.

Results

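The 41 genes described here encode the machinery that licenses and copies DNA and the enzymes and regulators that act with it in S phase. They were listed by name for their known part in DNA replication, with no threshold on measured values but with earlier results of these data known. They were found by symbol among 35275 Ensembl gene identifiers. All 41 were present, at a mean of 0.475 FPKM (*Fen1*) to 167 FPKM (*Pcna*) over 18 libraries. FPKM counts fragments relative to gene length and library size, so levels can be compared between genes.

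RNA was sequenced from regulatory T cells (Treg), CD4+ lymphocytes that hold immune responses in check and are defined by the transcription factor Foxp3. Every mouse was male, 6 to 8 weeks old, and carried the Foxp3-YFP-cre allele, which drives the Cre recombinase and a yellow fluorescent protein in Foxp3+ cells. In 5 groups Cre met a floxed allele, labelled Dyrk1 deletion, HDAC1 deletion, HDAC2 deletion, Mef2c deletion or Mef2d deletion, and the wild-type group carried Foxp3-YFP-cre alone. Each group had 3 libraries, described as independent biological replicates, from cells enriched on a CD4 column and sorted for YFP. Which *Dyrk1* gene was floxed is not given in the labels, the growth protocol speaks of an Rcor1 knockout that no label repeats, and the organ is not named.

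Replication is prepared in G1, when the origin recognition complex, CDC6 and CDT1 load the MCM helicase on DNA. In S phase CDC45 and the GINS complex switch the helicase on, and polymerases, the sliding clamp PCNA and its loader copy both strands. Most of these genes are transcribed in dividing cells under E2F transcription factors, which cyclin E and its kinase release from RB-family repressors, so that their RNA is widely read as a mark of proliferation. Treg are known to divide continually in the body, more so in the activated subset.

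Libraries held between 15.9 and 24.1 M reads, as recovered from the values. Of the targeted genes, *Hdac1* was at 27.8 to 36.5 FPKM in the HDAC1-labelled libraries and 117 to 122 FPKM in wild type. *Hdac2* was at 27.1 to 28.9 FPKM in the HDAC2-labelled libraries and 27.7 to 28.7 FPKM in wild type, and *Mef2c* was at 0.903 to 1.95 FPKM in its own group and 0.302 to 0.571 FPKM in wild type (adjusted p 0.446). *Dyrk1a* (log2 difference 0.25, adjusted p 0.0352) and *Dyrk1b* (0.68, adjusted p 0.000679) were called higher in Dyrk1-labelled libraries, and *Mef2d* (0.35, adjusted p 0.00718) in Mef2d-labelled ones. A value over a whole gene need not fall when only some exons are removed, but which exons are floxed is not given. Whether the deletion took place was not tested for the genes that were not lower, and groups are therefore named by their labels. The sum of 6 Treg markers (*Foxp3*, *Il2ra*, *Ctla4*, *Ikzf2*, *Cd4* and *Cd3e*) was between 926 and 1131 FPKM in every library. Single markers varied more, with *Ctla4* at 92.6 to 247 FPKM over the libraries. Against wild type 1 of the 6 was called higher in each of Dyrk1, HDAC1, HDAC2 and Mef2d, and 0 in Mef2c. In Dyrk1, HDAC1 and HDAC2 that marker was *Ikzf2*, and 0 of the 6 were called lower in any group.

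The wild-type libraries stood apart from each other in the replication genes. Their sum over the 41 genes was 1043, 821 and 1234 FPKM in wild-type replicates 1, 2 and 3. Replicate 3 was above the group mean in 40 of 41 genes and replicate 2 in 1 of 41. The median within-group SD of the genes on the log2(FPKM + 1) scale was 0.093 to 0.165 in the deletion groups and 0.296 in wild type, where that of all genes tested was 0.109. Among the HDAC1-labelled libraries replicate 2 was likewise above the group mean in 1 of 41. The libraries lowest in replication genes in these 2 groups were also the highest of their group in 8 plasma cell markers, at 6150 FPKM in HDAC1 replicate 2 (2060 and 2326 in the others) and 1661 FPKM in wild-type replicate 2 (658 and 564 in the others). Wild-type replicate 3, the highest of its group in replication genes, had 369 FPKM of 6 erythroid markers, against 23.9 and 167 in replicates 1 and 2. The part of plasma cell and erythroid RNA in the replication gene values was not tested.

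The libraries labelled Dyrk1 deletion had the most replication gene RNA and those labelled HDAC2 deletion the least. The sum of the 41 genes was 1326, 1243 and 1271 FPKM in Dyrk1-labelled libraries, 918, 773 and 959 FPKM in HDAC1-labelled ones and 637, 705 and 680 FPKM in HDAC2-labelled ones. It was 765, 777 and 820 FPKM in Mef2c-labelled and 740, 725 and 803 FPKM in Mef2d-labelled libraries. The 3 Dyrk1-labelled sums lay above every other library, and the 3 HDAC2-labelled sums lay under every other library. The Dyrk1 group had the highest mean of the 6 groups in 41 of 41 genes. The HDAC2 group had the lowest in 38, the exceptions being *Mcm2* and *Pole2* (lowest in Mef2d) and *Dnmt1* (lowest in Mef2c). In these bulk samples, fewer cycling cells and less RNA per cell cannot be told apart.

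**Figure D1:**
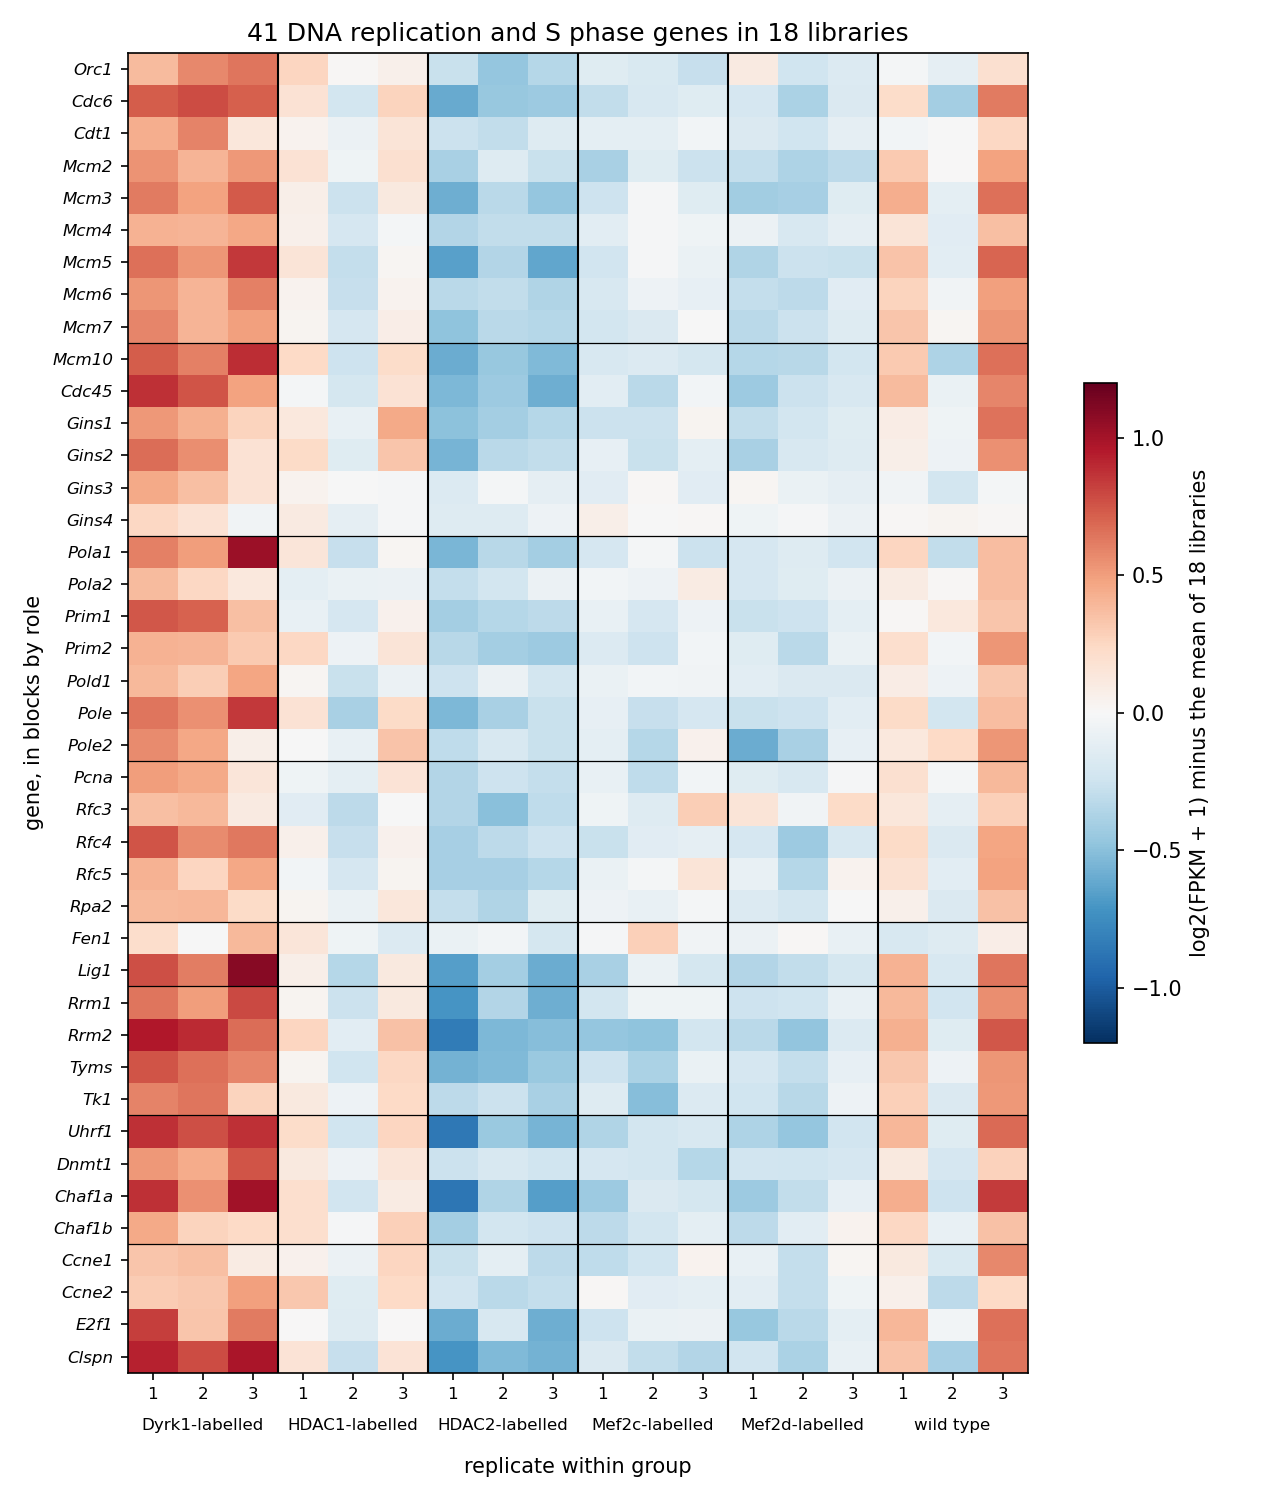
Level of each of the 41 genes (rows, in blocks by role) in each of the 18 libraries (columns) as log2(FPKM + 1) minus the mean of that gene over all libraries, red for higher and blue for lower. Nearly every row is reddest in the 3 Dyrk1-labelled libraries and in wild-type replicate 3, and bluest in the 3 HDAC2-labelled libraries, while *Gins4* and *Fen1* stay pale. *Fen1* was under 1 FPKM in every library, where adding 1 shrinks differences.

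Levels spanned a wide range and varied by unequal factors over the libraries. The ratio of the highest to the lowest library was 1.34 for *Gins4* and 4.24 for *Chaf1a*, with a median of 2.44. The highest library was Dyrk1-labelled for 37 genes and wild-type replicate 3 for 4 (*Gins1*, *Prim2*, *Rfc5* and *Ccne1*), and the lowest was HDAC2-labelled for 34. Values of at least 1 FPKM were read in all 18 libraries for 39 genes. *Orc1* reached that level in 14 libraries, and *Fen1* in 0, so *Fen1* was left out of the tests and 40 genes were tested. Differences are in log2(FPKM + 1) from limma fitted to 12223 genes in all 18 libraries, and a gene is called where its adjusted p over all those genes is under 0.05. Adding 1 shrinks differences most at low levels, so their sizes are not strictly comparable between genes. Over the 6 groups together the F test called 38 of the 40 genes, *Ccne1* and *Gins4* being the exceptions, against 38.6% of all genes tested.

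The direct comparison of Dyrk1-labelled with HDAC2-labelled libraries sets the groups with the most and the least replication gene RNA side by side. All 40 tested genes were higher in the Dyrk1 group, from 0.25 (*Gins4*) to 1.498 (*Clspn*) with a median log2 difference of 0.85, and the median of all genes was -0.03. In every gene the 3 Dyrk1-labelled libraries lay above the 3 HDAC2-labelled ones. Of all genes tested, 7.89% were called higher and 9.47% lower, and 13.6% were higher and 17.4% lower without overlap. This pair was chosen with the order of the groups known from earlier results, so these counts describe its extent. Each of the 6 libraries was left out in turn, and 37 to 40 calls were made. Of markers of other cells, 4 of 8 for plasma cells were called lower in Dyrk1 and 1 higher, 2 of 8 for CD8 T and NK cells were lower, and 2 of 5 tested for erythroid cells were lower, with *Igha* at -2.33, SE 0.54, adjusted p 0.0075. Plasma cell markers summed to 1127 to 1354 FPKM in Dyrk1 and 3471 to 10670 FPKM in HDAC2, and erythroid markers to 6.04 to 37.6 FPKM in Dyrk1 and 39.8 to 284 FPKM in HDAC2. The part of these in the replication gene differences was not tested.

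Replication genes tended to be higher in Dyrk1-labelled libraries than in wild type. The tests called 12 of 40 higher and 0 lower, against 11.1% of all genes called higher and 6.19% lower: *Orc1*, *Cdc6*, *Cdt1*, *Mcm4*, *Gins3*, *Pola1*, *Prim1*, *Pole*, *Rfc4*, *Uhrf1*, *Dnmt1* and *Clspn*. All 40 differences were positive, from 0.07 to 0.70 with a median of 0.31, and the median of all genes was 0.02. In 13 genes the Dyrk1-labelled libraries all lay above wild type and in 0 below it, against 17.8% and 12% of all genes. The count was 7, 8 and 5 without Dyrk1 replicates 1, 2 and 3, and 8, 4 and 24 without wild-type replicates 1, 2 and 3. Only *Orc1*, *Gins3*, *Prim1* and *Dnmt1* passed with each of these 6 libraries left out, and a fit of the 6 libraries alone called 0. Of all 11426 genes in that fit, only 28 were called higher and 34 lower. Dyrk1 replicate 1 held 357 FPKM of 7 B cell markers, against 30.4 and 24.9 FPKM in Dyrk1 replicates 2 and 3 and 21.98 to 43.2 FPKM in wild type. That library also held 490.4 FPKM of 7 myeloid markers (26.9 and 25.97 in Dyrk1 replicates 2 and 3) and 143 FPKM of 8 CD8 T and NK cell markers (60.7 and 51.2). The differences of all 5 erythroid markers tested were negative, with a median of -1.97 and 1 call, on *Hba-a1* (-2.99, SE 0.92, adjusted p 0.038), and the part of these in the count was not tested. The median difference of the replication genes was 0.30 when Dyrk1 replicate 1 was left out. Leaving out 1 wild-type library gave 0.17 (replicate 2) to 0.46 (replicate 3).

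The largest shift from wild type was in the HDAC2-labelled libraries. There 36 of 40 genes fell and 0 rose, against 9.41% of all genes called lower and 16.1% higher, with a median log2 difference of -0.55 (all genes 0.05). The largest falls were in *Rrm2*, *Chaf1a* and *Uhrf1*, and the genes not called were *Gins3*, *Gins4*, *Ccne1* and *Ccne2*. In 35 genes the HDAC2-labelled libraries all lay below wild type and in 0 above it, against 18% and 28.6% of all genes. The count was 22, 30 and 29 without HDAC2 replicates 1, 2 and 3, and 28, 38 and 17 without wild-type replicates 1, 2 and 3. The calls on 17 genes held whichever of the 6 libraries was left out. Plasma cell markers summed to 3471, 10670 and 4036 FPKM in the HDAC2-labelled libraries and to 564 to 1661 FPKM in wild type, with none of the 8 at 0 in all 3 libraries of a group. Of these 8 markers 6 were called higher in HDAC2, as were 3 of 8 CD8 T and NK cell markers, and the part of either in the result was not tested. Within the HDAC2 group the library highest in plasma cell markers, replicate 2, was also the highest in the sum of replication genes.

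In HDAC1-labelled libraries limma called 0 of 40 replication genes in either direction, while 10.2% of all genes were called higher and 2.32% lower. Of the 40, 7 had an unadjusted p under 0.05, against 29.1% of all genes. In 1 gene the HDAC1-labelled libraries all lay above wild type and in 1 below it, against 24.8% and 10.8% of all genes. The median difference was -0.18 and 36 of 40 were negative, the lowest adjusted p being 0.0633 for *Mcm7*. Without wild-type replicate 2 the test called 16 genes, all lower, and with any other of the 6 libraries left out it called 0. Set directly against the HDAC1 group, the HDAC2 group was lower in all 40 genes (median -0.40), without overlap in 34 genes against 12.9% of all genes, and 0 were higher without overlap, against 10.3%. Only *Rrm2* was called, against 1.06% of all genes called lower and 0.442% higher. An unadjusted p under 0.05 was reached by 32 of the 40, against 13.5% of all genes. The number called was 5 without HDAC1 replicate 2 and 0 without any other of these 6 libraries.

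The groups labelled Mef2c and Mef2d both lay under wild type. In Mef2c-labelled libraries 11 of 40 genes fell, against 6.06% of all genes, and in Mef2d-labelled libraries 17 of 40 fell, against 7.95%. In both, 0 rose, against 12.9% of all genes in Mef2c and 13.9% in Mef2d. The median differences were -0.35 in Mef2c and -0.42 in Mef2d, and these comparisons share the wild-type libraries. All Mef2c-labelled libraries lay below wild type in 15 genes (12.8% of all genes) and above it in 0 (23.5% of all genes). All Mef2d-labelled libraries lay below it in 21 genes (16.3%) and above it in 0 (25.9%).

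Both counts depended on the wild-type libraries. For Mef2c the count was 1, 2 and 6 without its own replicates 1, 2 and 3, and 3, 27 and 1 without wild-type replicates 1, 2 and 3. For Mef2d it was 3, 8 and 15 without its own replicates, and 10, 34 and 2 without wild-type replicates 1, 2 and 3. *Mcm2* was called in both groups, and *Mcm7* in Mef2d, with every 1 of the libraries concerned left out. Compared directly, Mef2c and Mef2d differed in 0 of 40 genes by limma (1.6% of all genes were called higher in Mef2c and 1.46% lower), with a median of 0.07. An unadjusted p under 0.05 was reached by 0 of the 40, against 12.8% of all genes. Mef2c was higher without overlap in 5 genes and lower in 0, against 10.2% and 8.45% of all genes. B cell markers summed to 117, 55.6 and 77.7 FPKM in Mef2c-labelled and 164, 45.1 and 71.4 FPKM in Mef2d-labelled libraries, all above the 21.98 to 43.2 FPKM of wild type, and 0 of the 7 were called. The erythroid gene *Hbb-bt* fell in Mef2c (-3.29, SE 0.82, adjusted p 0.0126) and Mef2d (-2.87, SE 0.82, adjusted p 0.0233), as did the NK cell gene *Klrb1c*, which fell by 1.51 in Mef2c (adjusted p 0.00205) and 1.57 in Mef2d (adjusted p 0.00196). No other of the 5 tested erythroid markers was called in either group, and all 5 differences were negative in both. Of 8 CD8 T and NK cell markers *Klrb1c* alone was called, and 1 of the 8 in Mef2c and 3 in Mef2d had positive differences. The part of these markers in the counts was not tested. Replicate 1 of the Mef2c, Mef2d and Dyrk1 groups, the 3 libraries highest in B cell markers, was then left out. In this setting, added after the data were seen, 1 of 40 genes fell in Mef2c, 2 in Mef2d and 33 in HDAC2, and 5 rose in Dyrk1. Of all 12075 genes tested there, 409 fell in Mef2c, 487 in Mef2d and 1112 in HDAC2, and 1504 rose in Dyrk1. The Mef2c, Mef2d and Dyrk1 counts were near these shares.

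**Figure D2:**
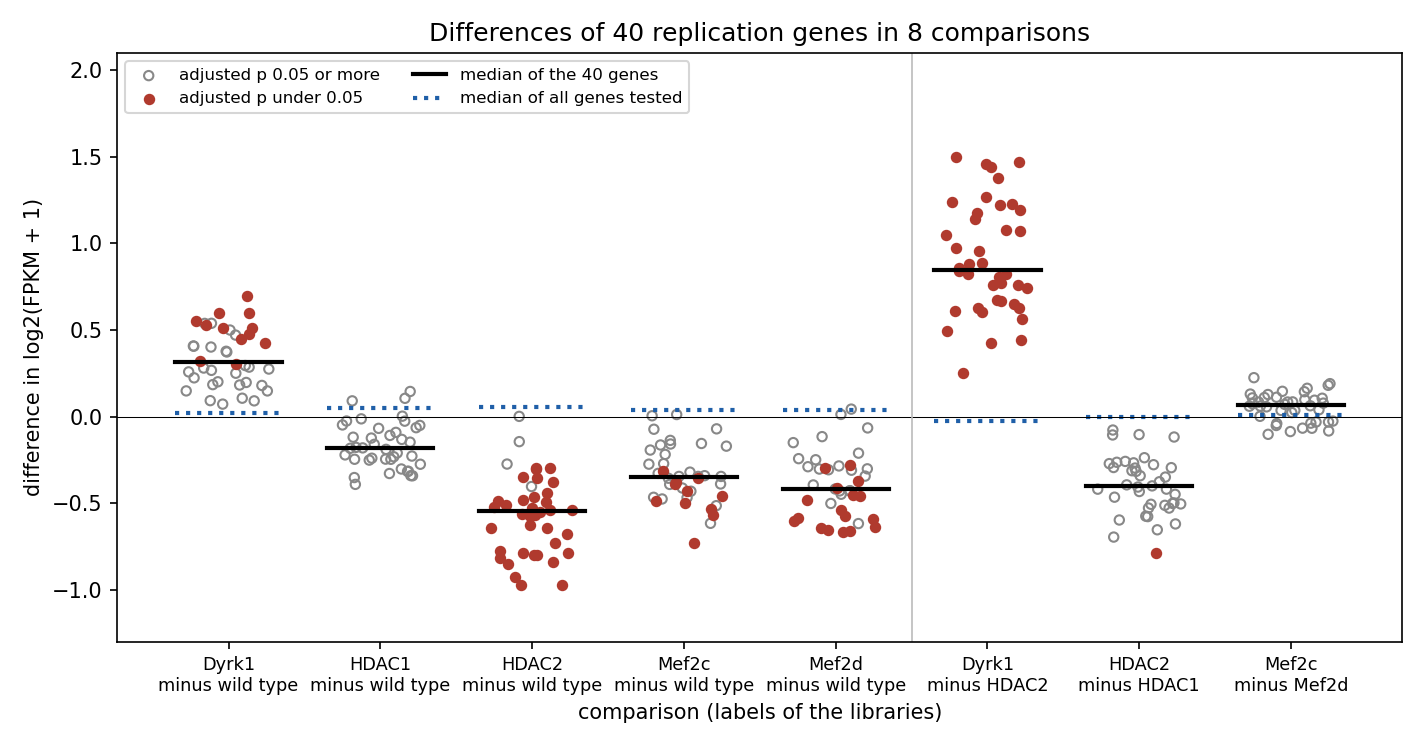
Difference in log2(FPKM + 1) of each of the 40 tested genes (points) in 5 comparisons with wild type and 3 between deletion groups, filled where the adjusted p was under 0.05, with the median of the 40 (black) and of all 12223 genes (dotted blue). The Dyrk1 minus HDAC2 points are all filled and all above 0, the HDAC2 minus wild type points are nearly all filled and below 0, and the HDAC1 and Mef2c minus Mef2d points are all open.

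Promoter sequence is shown because members that move together can share short words near their starts. RefSeq windows from 250 bases before to 50 after a start (build GRCm38.p6) were held for 34 of the 41 genes. The E2F-type words TTTCCCGC, TTTCGCGC, TTTGCCGC and TTTGGCGC, searched on both strands, were in 16 of the 34 (47.1%), in 4.94% of genes tested that have a window and in 2.6% of all genes with one. CCAAT was in 58.8% of the 34, against 42.9% of genes tested. TTTGAA or TTCGAA, letters of the cell cycle homology region type, were in 20.6%, against 16.8%. A match is a description of letters, and the RNA data do not show what binds there.

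The bases before every annotated start follow for 3 genes with such a word there (*Mcm5*, *Mcm6* and *Pola1*) and for 2 with none in their window (*Rrm2* and *Cdc45*), with the word in capitals, 5′ to 3′ on the strand of the gene. Where the word lies on the other strand, its reverse complement is in capitals, and the *Mcm5* run and the longer *Mcm6* run each join overlapping words on opposite strands.
Mcm5 (chr8:75109259-75109508, + strand): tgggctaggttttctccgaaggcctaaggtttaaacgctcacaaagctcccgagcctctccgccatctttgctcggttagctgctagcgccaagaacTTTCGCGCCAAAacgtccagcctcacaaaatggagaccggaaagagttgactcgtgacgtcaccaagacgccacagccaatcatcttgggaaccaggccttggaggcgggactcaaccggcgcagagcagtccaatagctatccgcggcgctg
Mcm6 (chr1:128359706-128359955, - strand): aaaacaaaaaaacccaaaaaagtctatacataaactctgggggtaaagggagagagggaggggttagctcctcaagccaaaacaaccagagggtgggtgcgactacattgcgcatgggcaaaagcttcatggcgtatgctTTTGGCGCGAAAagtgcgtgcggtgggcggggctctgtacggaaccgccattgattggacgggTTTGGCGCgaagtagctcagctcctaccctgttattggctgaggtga
Pola1 (chrX:93632156-93632405, - strand): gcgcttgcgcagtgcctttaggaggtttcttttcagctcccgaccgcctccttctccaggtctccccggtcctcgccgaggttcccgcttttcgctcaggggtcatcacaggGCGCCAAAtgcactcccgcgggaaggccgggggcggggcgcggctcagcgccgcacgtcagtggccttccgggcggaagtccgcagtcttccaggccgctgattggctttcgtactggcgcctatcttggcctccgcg
Rrm2 (chr12:24708004-24708240, + strand): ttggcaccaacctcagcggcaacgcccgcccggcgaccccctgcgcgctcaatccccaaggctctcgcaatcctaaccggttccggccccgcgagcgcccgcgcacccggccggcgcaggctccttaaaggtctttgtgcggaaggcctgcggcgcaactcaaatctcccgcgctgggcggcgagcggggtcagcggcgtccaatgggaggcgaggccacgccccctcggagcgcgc
Cdc45 (chr16:18811988-18812222, - strand): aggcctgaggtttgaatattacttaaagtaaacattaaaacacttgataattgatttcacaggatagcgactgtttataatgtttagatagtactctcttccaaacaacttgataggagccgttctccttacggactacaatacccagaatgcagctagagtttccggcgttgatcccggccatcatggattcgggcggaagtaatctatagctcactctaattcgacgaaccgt

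Shorter stretches around the word nearest the start follow for 6 of the genes called higher in Dyrk1-labelled libraries. Of the others called higher there, *Pola1* and *Cdt1* held a word, *Prim1* and *Rfc4* had a window without one, and *Mcm4* and *Pole* had no window. In *Orc1*, *Cdc6*, *Gins3* and *Uhrf1* the word began -27, -138, -41 and -185 bases from the RefSeq start, and in *Clspn* and *Dnmt1* it began 21 and 33 bases past it. Other annotated starts lie further upstream, and in each of these 6 genes the word is past the first of them.
Orc1 (chr4:108579417-108579444, + strand): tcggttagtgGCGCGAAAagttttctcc
Cdc6 (chr11:98908003-98908030, + strand): ccggtggagaGCGGGAAAtcgcctgggg
Gins3 (chr8:95633508-95633535, + strand): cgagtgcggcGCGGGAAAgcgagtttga
Uhrf1 (chr17:56304118-56304145, + strand): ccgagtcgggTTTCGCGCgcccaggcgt
Clspn (chr4:126556991-126557018, + strand): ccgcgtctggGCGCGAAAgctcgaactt
Dnmt1 (chr9:20952574-20952600, - strand): cggggcagcgTTTGGCGCgggctgtgc

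**Figure D3:**
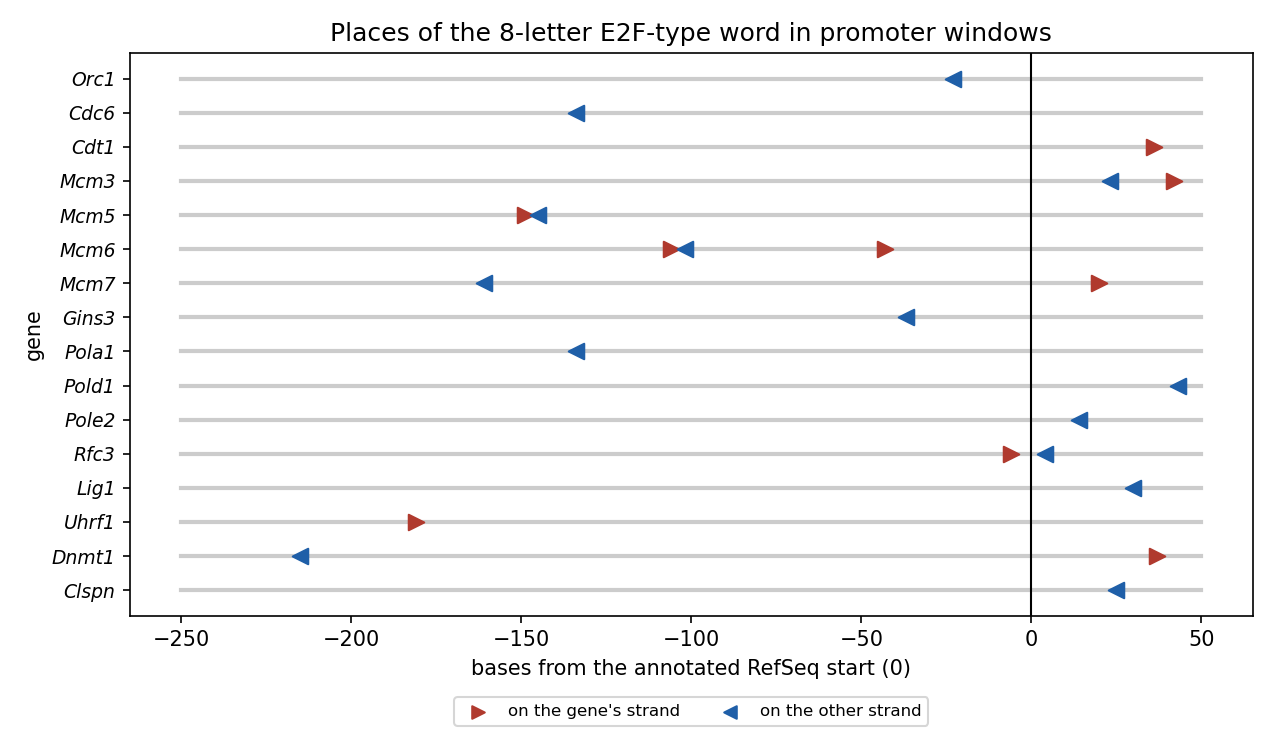
Places of the 23 E2F-type words in the promoter windows of the 16 genes that hold one, as bases from the RefSeq start (0), with the direction of the triangle giving the strand. The words lie from -219 to 39 bases from the start, in *Mcm5* and *Mcm6* as overlapping pairs on opposite strands.

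The Dyrk1 minus HDAC2 difference had a median of 0.88 in the 16 genes with a word (0.43 to 1.498) and 0.96 in the 17 tested genes whose window had none (0.44 to 1.47). Both ranges cover nearly the whole span of the 40 genes, and the difference between them was not tested.

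All 9 origin licensing genes fell in HDAC2-labelled libraries, and 4 of the 9 rose in Dyrk1-labelled ones. The HDAC2 call was lost under 8 of 14 other settings for *Cdt1* and 6 of 13 for *Orc1*, and under 0 for *Mcm2*, *Mcm3*, *Mcm4*, *Mcm5*, *Mcm6* and *Mcm7*. *Mcm5*, a subunit of the MCM helicase and the highest of the 9, was at 77.4, 70.4 and 88.5 FPKM in Dyrk1-labelled, 54.2, 39.6 and 49.5 FPKM in HDAC1-labelled and 30.5, 37.8 and 31.2 FPKM in HDAC2-labelled libraries. It was at 41.5, 48.02 and 45.97 FPKM in Mef2c-labelled and 37.5, 40.4 and 40.3 FPKM in Mef2d-labelled libraries, against 62.01, 44.6 and 79.3 FPKM in wild type. Every HDAC2-labelled and Mef2d-labelled library lay under every wild-type one, whereas wild-type replicate 3 reached into the Dyrk1 range. *Mcm5* fell in HDAC2 (log2 -0.85, SE 0.17, adjusted p 0.00369) and Mef2d (-0.60, SE 0.17, adjusted p 0.0195). The difference of 0.37 (SE 0.17, adjusted p 0.132) in Dyrk1 was not called.

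The other subunits of the helicase ring followed closely. The 6 subunits averaged 39.7 to 51.0 FPKM over all libraries, and all 6 fell in HDAC2-labelled libraries. *Mcm7* was at 32.5, 36.3 and 35.9 FPKM in HDAC2-labelled and 36.4, 38.2 and 40.98 FPKM in Mef2d-labelled libraries, against 58, 46.5 and 66.3 FPKM in wild type, with no overlap in either case. It differed by -0.68 (SE 0.11, adjusted p 0.00238) in HDAC2, by -0.54 (SE 0.11, adjusted p 0.00453) in Mef2d and by -0.43 (SE 0.11, adjusted p 0.0157) in Mef2c.

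*Mcm2* was the subunit whose fall in both Mef2 groups held with any 1 library left out. It was at 29.2, 34.9 and 32.1 FPKM in Mef2c-labelled and 31.4, 29.6 and 30.9 FPKM in Mef2d-labelled libraries, against 48.2, 38.8 and 54.5 FPKM in wild type. All 6 lay under the wild-type libraries. The difference was -0.53 (SE 0.11, adjusted p 0.00377) in Mef2c and -0.59 (SE 0.11, adjusted p 0.00219) in Mef2d. *Mcm6* fell in both as well, by 0.36 in Mef2c and 0.48 in Mef2d, and *Mcm3* fell in Mef2d by 0.65, its 0.47 decrease in Mef2c missing the threshold (adjusted p 0.0546). The difference between the Mef2 groups was not called for either (*Mcm6* adjusted p 0.766, *Mcm3* 0.761). *Mcm4* was the only subunit called higher in Dyrk1, at 55.1, 54.6 and 56.8 FPKM in Dyrk1-labelled libraries and 45.8, 37.2 and 52.7 FPKM in wild type (0.30, SE 0.10, adjusted p 0.041). That call was lost under 10 of 14 other settings, and the other 5 subunits had differences of 0.20 to 0.37 there that were not called.

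The loading factors were among the genes that rose in Dyrk1-labelled libraries. *Orc1*, the largest subunit of the origin recognition complex, was at 2.096, 2.54 and 2.704 FPKM in Dyrk1-labelled libraries, 0.978, 0.721 and 0.881 FPKM in HDAC2-labelled ones and 1.34, 1.201 and 1.72 FPKM in wild type. The 3 groups did not overlap, although *Orc1* was read by only 47 to 167 reads per library. It rose in Dyrk1 (0.51, SE 0.12, adjusted p 0.00919) and fell in HDAC2 (-0.38, SE 0.12, adjusted p 0.0283). *Cdc6*, which joins ORC at the origin, was at 7.34, 7.64 and 7.25 FPKM in Dyrk1-labelled and 2.31, 2.67 and 2.71 FPKM in HDAC2-labelled libraries, against 4.86, 2.79 and 6.75 FPKM in wild type. Wild-type replicate 2 lay close to the HDAC2-labelled libraries and wild-type replicate 3 close to the Dyrk1-labelled ones. It rose in Dyrk1 (0.60, SE 0.19, adjusted p 0.0416) and fell in HDAC2 (-0.64, SE 0.19, adjusted p 0.0228). The rise was lost under 9 of 14 other settings and the fall under 4 of 14. *Cdt1*, which brings the helicase to the origin, was higher in Dyrk1 by 0.32 (SE 0.10, adjusted p 0.0434), a call lost under 8 of 14 other settings. It was at 28.6, 32.04 and 23.1 FPKM in Dyrk1-labelled libraries and 20.4, 20.7 and 24.9 FPKM in wild type, with 1 wild-type library inside the Dyrk1 range.

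Helicase activation genes split within the GINS complex. *Gins4*, the highest of the 6, was at 29.8, 28.2 and 24.1 FPKM in Dyrk1-labelled, 26.8, 23.01 and 24.7 FPKM in HDAC1-labelled and 22.3, 22.3 and 23.8 FPKM in HDAC2-labelled libraries. It was at 26.1, 24.8 and 25.2 FPKM in Mef2c-labelled and 23.97, 24.7 and 23.7 FPKM in Mef2d-labelled libraries, against 25.1, 25.5 and 25.2 FPKM in wild type. The wild-type replicates were within 1 FPKM of each other here, unlike in most of the 41 genes. *Gins4* was called in none of the 5 comparisons with wild type (smallest adjusted p 0.134, in HDAC2).

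*Gins3* rose in Dyrk1-labelled libraries and was called in no other comparison with wild type. It was at 6.99, 6.49 and 5.56 FPKM in Dyrk1-labelled and 4.19, 4.75 and 4.42 FPKM in HDAC2-labelled libraries, against 4.64, 4.002 and 4.72 FPKM in wild type. The Dyrk1 difference was 0.43 (SE 0.08, adjusted p 0.00406) and that of HDAC2 was 0.00 (SE 0.08, adjusted p 0.995). *Gins1* and *Gins2* showed the other pattern, with differences in HDAC2 of -0.64 (SE 0.16, adjusted p 0.011) and -0.58 (SE 0.17, adjusted p 0.0216) and differences of 0.18 and 0.28 in Dyrk1 that were not called. The 4 subunits of this complex therefore had 3 patterns of calls in these 2 comparisons, and differences between subunits were not tested. Of the *Gins2* exon bases 67.3% overlap the opposite-strand gene *Gse1*, and whether counting used strand is not given in the sources used here.

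*Cdc45* and *Mcm10* act with GINS on the helicase. The ratio of the highest to the lowest library was 3.10 for *Cdc45* and 3.72 for *Mcm10*, against 1.34 (*Gins4*) to 3.17 (*Gins2*) in the GINS genes. *Cdc45* was at 16.6, 15.1 and 12.3 FPKM in Dyrk1-labelled and 5.58, 6.08 and 5.37 FPKM in HDAC2-labelled libraries, against 11.5, 8.07 and 13.4 FPKM in wild type. The HDAC2-labelled libraries were all under the wild-type ones, with a difference of -0.82 (SE 0.15, adjusted p 0.00319). *Cdc45* also fell in Mef2d (-0.59, SE 0.15, adjusted p 0.0149) and Mef2c (-0.46, SE 0.15, adjusted p 0.0481). The Mef2d call was lost under 4 of 14 other settings and the Mef2c call under 9 of 14. *Mcm10* fell in HDAC2 (-0.73, SE 0.19, adjusted p 0.0146) and was not called in Mef2d (-0.50, SE 0.19, adjusted p 0.075) or Mef2c (-0.39, SE 0.19, adjusted p 0.17).

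Among polymerases and primase, the Dyrk1 calls fell on the polymerase that starts strands and on the catalytic subunit of the leading-strand enzyme. *Prim1*, the catalytic primase subunit that lays RNA primers, was at 13.9, 13.5 and 10.4 FPKM in Dyrk1-labelled and 5.69, 5.98 and 6.16 FPKM in HDAC2-labelled libraries, against 7.97, 8.68 and 10.2 FPKM in wild type. The 3 groups did not overlap. It rose in Dyrk1 (0.45, SE 0.10, adjusted p 0.0117) and fell in HDAC2 (-0.51, SE 0.10, adjusted p 0.00455), and its F test had the smallest adjusted p of the 40 genes (0.000113).

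*Pola1*, the catalytic subunit of polymerase alpha, was at 10.9, 10.1 and 14.9 FPKM in Dyrk1-labelled libraries and 8.37, 5.39 and 9.16 FPKM in wild type (0.60, SE 0.16, adjusted p 0.0236). The highest value was Dyrk1 replicate 3, and the call was lost without it or without wild-type replicate 2. *Pole*, the catalytic subunit of polymerase epsilon, rose by 0.55 (SE 0.16, adjusted p 0.031). Their partners *Pola2* and *Pole2* had differences of 0.09 and 0.07 that were not called. All 7 genes of this group fell in HDAC2, by 0.30 (*Pold1*) to 0.62 (*Prim2*). The HDAC2 calls were lost under 6 of 14 other settings for *Pola1* and *Pole*, 5 for *Pold1* and 0 for *Prim1* and *Prim2*.

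*Pold1*, the catalytic subunit of polymerase delta and the highest of the 7, was at 36.3, 34.1 and 38.6 FPKM in Dyrk1-labelled, 28.03, 22.8 and 26.2 FPKM in HDAC1-labelled and 22.98, 26.2 and 23.5 FPKM in HDAC2-labelled libraries. It was at 25.96, 26.9 and 26.7 FPKM in Mef2c-labelled and 25.1, 24.3 and 24.3 FPKM in Mef2d-labelled libraries, against 29.4, 26.5 and 34.7 FPKM in wild type. The Mef2d-labelled libraries lay close together and all under wild type, and *Pold1* fell there by a small amount (-0.28, SE 0.09, adjusted p 0.0394). In Dyrk1 it just missed the threshold (0.27, SE 0.09, adjusted p 0.054).

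*Prim2* had the largest fall of the 7 in HDAC2, and *Pole2* in Mef2d. *Prim2*, the regulatory primase subunit, was at 6.07, 5.68 and 5.56 FPKM in HDAC2-labelled libraries and 9.197, 7.68 and 11.8 FPKM in wild type (-0.62, SE 0.12, adjusted p 0.00346), with no overlap. *Pole2*, a subunit of polymerase epsilon, was at 3.61, 4.299 and 5.51 FPKM in Mef2d-labelled libraries and 6.58, 7.21 and 9.01 FPKM in wild type (-0.66, SE 0.16, adjusted p 0.0117). Mef2d replicate 1 had the lowest *Pole2* of all 18 libraries, and the call was lost without it or without wild-type replicate 3.

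The clamp *Pcna* was the most abundant of the 41 genes. It was at 234, 226 and 182 FPKM in Dyrk1-labelled, 158, 152 and 184 FPKM in HDAC1-labelled and 128, 138 and 134 FPKM in HDAC2-labelled libraries. It was at 155, 133 and 161 FPKM in Mef2c-labelled and 149, 144 and 163 FPKM in Mef2d-labelled libraries, against 188, 162 and 215 FPKM in wild type. Only the HDAC2-labelled and Mef2c-labelled libraries were wholly under wild type. *Pcna* fell in HDAC2 (-0.48, SE 0.11, adjusted p 0.00844), a call lost without wild-type replicate 3, and the Mef2c difference was not called (-0.33, SE 0.11, adjusted p 0.0587). Processed copies of *Pcna* and *Tyms* are annotated in the mouse genome, so reads may be shared with them.

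The clamp loader and single-strand binding genes gave small differences. *Rfc3*, *Rfc4* and *Rfc5*, subunits of replication factor C, and *Rpa2*, a subunit of the single-strand binding protein RPA, all fell in HDAC2, by 0.49, 0.50, 0.56 and 0.35. The HDAC2 call was lost under 7 of 14 other settings for *Rpa2* and 0 for *Rfc5*. *Rfc4* was the only one of the 4 called in other comparisons with wild type, at 22.2, 19.4 and 20.3 FPKM in Dyrk1-labelled and 10.96, 9.19 and 11.03 FPKM in Mef2d-labelled libraries, against 15.1, 11.2 and 18.1 FPKM in wild type. It rose in Dyrk1 (0.48, SE 0.13, adjusted p 0.0264) and fell in Mef2d (-0.45, SE 0.13, adjusted p 0.028), and all Dyrk1-labelled values were above wild type. *Rfc3* was nearly level with wild type in Mef2d (0.01, SE 0.13, adjusted p 0.957) and Mef2c (-0.07, SE 0.13, adjusted p 0.745).

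*Lig1*, the ligase that joins Okazaki fragments, was at 51.9, 46.4 and 64.8 FPKM in Dyrk1-labelled, 31.4, 23.4 and 32.5 FPKM in HDAC1-labelled and 18.6, 22.3 and 19.5 FPKM in HDAC2-labelled libraries. It was at 22.7, 28.2 and 25.7 FPKM in Mef2c-labelled and 23.2, 24.1 and 25.6 FPKM in Mef2d-labelled libraries, against 40.3, 25.97 and 47.3 FPKM in wild type. Wild-type replicate 2 was close to the Mef2 groups, and wild-type replicate 3 was above the lowest Dyrk1-labelled library. *Lig1* fell in HDAC2 (-0.84, SE 0.18, adjusted p 0.00586) and Mef2d (-0.58, SE 0.18, adjusted p 0.0362), and its difference in Dyrk1 was not called (0.54, SE 0.18, adjusted p 0.0554).

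*Fen1*, the flap nuclease that works before the ligase, was near the floor of the data. It was at 0.262 to 0.916 FPKM over the 18 libraries, or 14 to 40 reads, and was not tested. Of its annotated exon bases 78.8% lie opposite the antisense gene *Gm10143*, itself at 0.112 FPKM, and 5.37% opposite *Tmem258*, at 61.2 FPKM. Whether reads in such overlaps were dropped in counting was not tested, so the value may not be the level of *Fen1* RNA.

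All 4 nucleotide supply genes fell in HDAC2-labelled libraries. *Rrm2*, the small subunit of ribonucleotide reductase, whose level follows S phase, was at 72.1, 68.97 and 59.1 FPKM in Dyrk1-labelled, 43.96, 33.4 and 46.97 FPKM in HDAC1-labelled and 20.1, 24.9 and 25.4 FPKM in HDAC2-labelled libraries. It was at 26.3, 26.03 and 31.2 FPKM in Mef2c-labelled and 29.1, 26.1 and 32.6 FPKM in Mef2d-labelled libraries, against 49.5, 33.1 and 61.98 FPKM in wild type. All 9 libraries of the HDAC2, Mef2c and Mef2d groups lay under every wild-type library. *Rrm2* fell in HDAC2 (-0.97, SE 0.18, adjusted p 0.00341), Mef2c (-0.73, SE 0.18, adjusted p 0.0138) and Mef2d (-0.66, SE 0.18, adjusted p 0.0211). It was also the gene called between HDAC2 and HDAC1 (-0.79, SE 0.18, adjusted p 0.0475), a call lost under 11 of 14 other settings.

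*Tyms*, which makes the thymidine nucleotide, was at 4.51, 4.68 and 5.02 FPKM in HDAC2-labelled and 5.89, 5.27 and 6.76 FPKM in Mef2c-labelled libraries, against 9.203, 6.86 and 10.8 FPKM in wild type. Both groups lay under all wild-type libraries, with differences of -0.78 (SE 0.14, adjusted p 0.00287) in HDAC2 and -0.50 (SE 0.14, adjusted p 0.0212) in Mef2c. *Rrm1*, the large subunit of the reductase, and *Tk1*, the thymidine salvage kinase, fell in HDAC2 by 0.79 and 0.53, and *Tk1* fell in Mef2c by 0.49. The HDAC2 call was lost under 5 of 14 other settings for *Tk1* and 0 for *Rrm1*. None of the 4 genes was called in Dyrk1, at differences of 0.29 to 0.50 and adjusted p of 0.0573 to 0.208.

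Of the 4 genes that restore chromatin behind the fork, 2 rose in Dyrk1 and all 4 fell in HDAC2. *Dnmt1*, the maintenance DNA methyltransferase, was at 66.6, 63.5 and 78.95 FPKM in Dyrk1-labelled, 50.3, 44.3 and 51.1 FPKM in HDAC1-labelled and 38.4, 40.4 and 38.96 FPKM in HDAC2-labelled libraries. It was at 40.01, 39.7 and 36.4 FPKM in Mef2c-labelled and 39.4, 39.1 and 40.2 FPKM in Mef2d-labelled libraries, against 50.2, 40.1 and 56.3 FPKM in wild type. The Dyrk1-labelled libraries stood above all others, while HDAC2, Mef2c and Mef2d lay in 1 narrow band with wild-type replicate 2. *Dnmt1* rose in Dyrk1 (0.51, SE 0.10, adjusted p 0.00573), and its falls in HDAC2 (-0.30, SE 0.10, adjusted p 0.0484) and Mef2c (-0.32, SE 0.10, adjusted p 0.0447) were each lost under 8 of 14 other settings.

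*Uhrf1*, which brings DNMT1 to newly copied DNA, was at 49.3, 45.7 and 49.2 FPKM in Dyrk1-labelled and 14.1, 19.2 and 17.6 FPKM in HDAC2-labelled libraries, against 35.02, 23.8 and 42.96 FPKM in wild type. The 3 groups did not overlap. The fall in HDAC2 (-0.93, SE 0.17, adjusted p 0.00328) held in all 14 other settings, whereas the rise in Dyrk1 (0.53, SE 0.17, adjusted p 0.0498) was lost in 11 of 14. *Uhrf1* also fell in Mef2c (-0.57, SE 0.17, adjusted p 0.035) and Mef2d (-0.66, SE 0.17, adjusted p 0.0161).

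*Chaf1a* and *Chaf1b* encode the subunits of CAF-1 that place histones on new DNA. *Chaf1a*, the gene with the widest range, was at 17.7, 13.9 and 19.5 FPKM in Dyrk1-labelled and 4.598, 6.94 and 5.42 FPKM in HDAC2-labelled libraries, against 12.8, 7.598 and 17.2 FPKM in wild type. It fell in HDAC2 (-0.97, SE 0.22, adjusted p 0.00694). Of its exon bases 52.5% lie opposite *Ubxn6*, at 18.3 FPKM. *Chaf1b* fell in HDAC2 by 0.46 and in Mef2c, where it was at 7.23, 7.801 and 8.45 FPKM in Mef2c-labelled libraries and 11.2, 8.62 and 12.1 FPKM in wild type (-0.39, SE 0.12, adjusted p 0.0354), with no overlap.

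**Figure D4:**
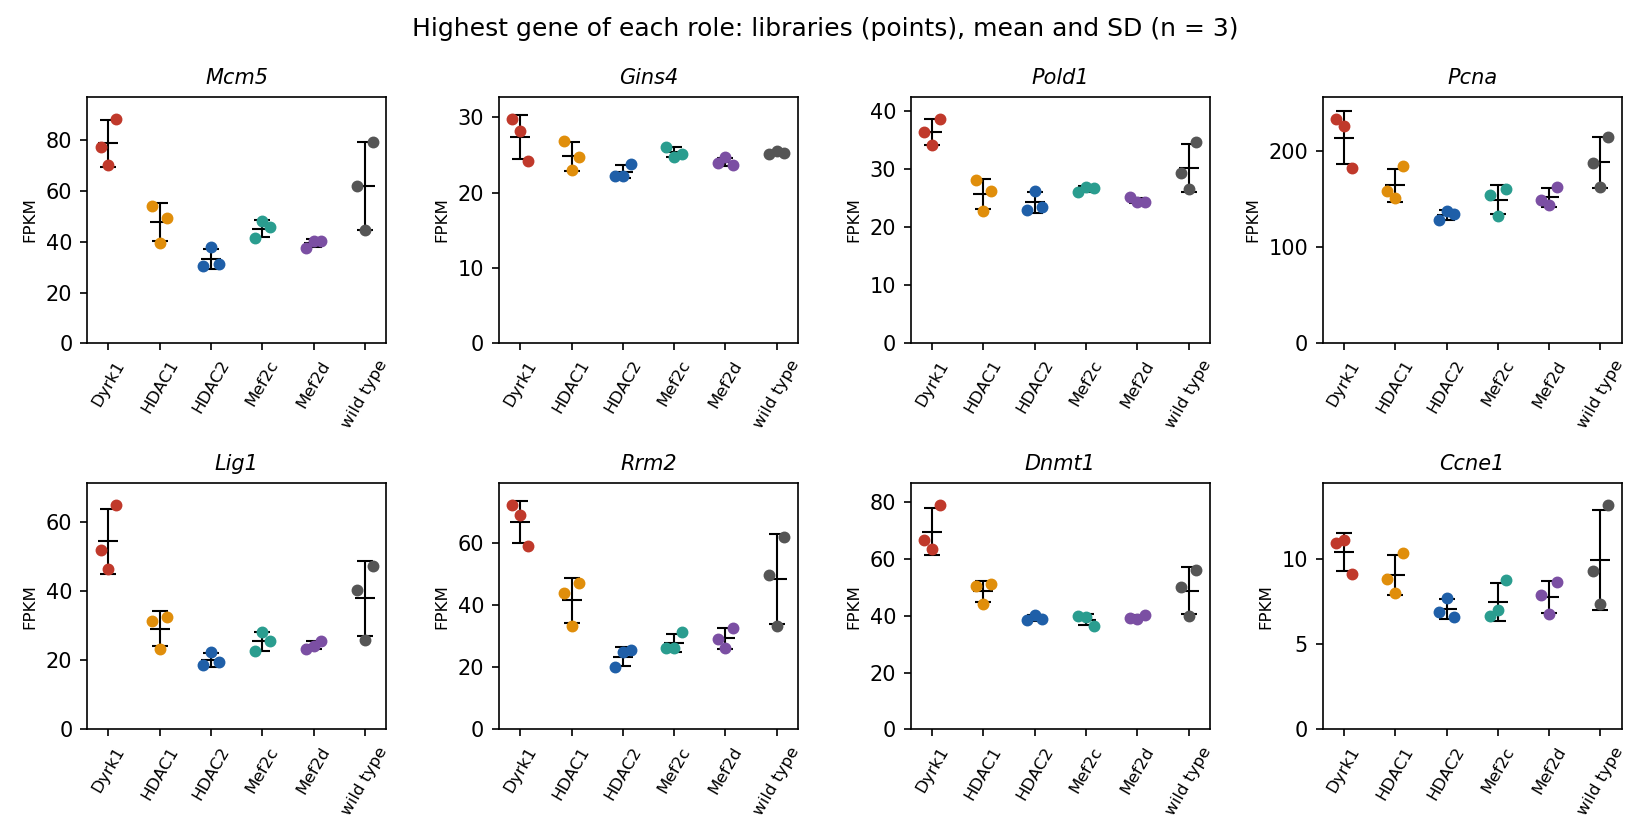
FPKM in every library (points), with the mean and SD of 3 libraries, for the gene of highest mean in each of the 8 roles. The Dyrk1 mean is the highest of the 6 in every panel, the wild-type points are widely spread except in *Gins4*, and in *Ccne1* wild-type replicate 3 is the highest library.

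Neither cyclin E gene was called in a comparison with wild type. *Ccne1*, the partner of CDK2 at the G1 to S step, was at 10.97, 11.1 and 9.13 FPKM in Dyrk1-labelled, 8.85, 8.04 and 10.3 FPKM in HDAC1-labelled and 6.89, 7.74 and 6.62 FPKM in HDAC2-labelled libraries. It was at 6.66, 7.01 and 8.76 FPKM in Mef2c-labelled and 7.92, 6.75 and 8.65 FPKM in Mef2d-labelled libraries, against 9.29, 7.36 and 13.2 FPKM in wild type. Wild type alone covered most of the range, and *Ccne1* was called in no comparison with wild type (smallest adjusted p 0.0752, in HDAC2). *Ccne2*, the other cyclin E, was likewise called in none of these (smallest adjusted p 0.0682, in Dyrk1).

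*E2f1* and *Clspn* moved further. *E2f1*, a transcription factor of S phase genes, fell in HDAC2 (-0.80, SE 0.17, adjusted p 0.00493) and Mef2d (-0.64, SE 0.17, adjusted p 0.0157). *Clspn*, claspin, which carries the replication stress signal to CHK1, was at 12.01, 10.8 and 12.5 FPKM in Dyrk1-labelled and 3.19, 3.74 and 3.64 FPKM in HDAC2-labelled libraries, against 7.72, 4.2 and 9.7 FPKM in wild type. The 3 groups did not overlap. *Clspn* had the largest rise in Dyrk1 on the log2(FPKM + 1) scale (0.70, SE 0.20, adjusted p 0.0253), a call lost without Dyrk1 replicate 3 or wild-type replicate 2. It fell in HDAC2 (-0.80, SE 0.20, adjusted p 0.00983).

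Genes of the same pathway outside the 41 were also called, in the same directions. The background for counts in other gene lists is the share of all genes called, which was 11.1% higher and 6.19% lower in Dyrk1 and 16.1% higher and 9.41% lower in HDAC2. It was 12.9% higher and 6.06% lower in Mef2c and 13.9% higher and 7.95% lower in Mef2d. Of 37 other replication machinery genes, 11 rose in Dyrk1 and 0 fell, with a median of 0.12. In HDAC2 16 of the 37 fell and 0 rose (median -0.21), in Mef2c 9 fell and in Mef2d 6 fell. *Tipin*, part of the fork protection complex, fell in HDAC2 (-0.74, SE 0.12, adjusted p 0.00238), Mef2c (-0.53, SE 0.12, adjusted p 0.00769) and Mef2d (-0.50, SE 0.12, adjusted p 0.0103). *Rpa1*, the large subunit of RPA, was the only one of the 37 called in HDAC1 (-0.29, SE 0.07, adjusted p 0.0214). Between Dyrk1 and HDAC2, 22 of the 37 were higher in Dyrk1, among them the topoisomerase *Top2a* (1.76, SE 0.21, adjusted p 8.85e-05).

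Genes of G2 and mitosis had larger medians than the replication genes. Of 25, 9 rose in Dyrk1 (median 0.46), 22 fell in HDAC2 (-0.92), 13 fell in Mef2c (-0.61) and 16 fell in Mef2d (-0.62), with 0 called the other way in each. *Foxm1*, the transcription factor of the mitotic programme, was at 11.9 ± 0.435 FPKM in Dyrk1-labelled libraries and rose (0.66, SE 0.14, adjusted p 0.00808), while in HDAC2 it was at 3.62 ± 0.305 FPKM and fell (-0.83, SE 0.14, adjusted p 0.00283), against 7.29 ± 1.62 FPKM in wild type (SD, n = 3 each). The sum of the 25 genes was 549, 506 and 504 FPKM in Dyrk1-labelled libraries and 165, 203 and 186 FPKM in HDAC2-labelled ones, against 379, 257 and 478 FPKM in wild type. Wild-type replicate 2 was again the lowest of its group and replicate 3 the highest.

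Checkpoint and repair genes were mixed. Of 20, 5 rose in Dyrk1, among them *Wee1*, the kinase that holds CDK1 (0.76, SE 0.11, adjusted p 0.000832), and *Brca1* (0.61, SE 0.12, adjusted p 0.00577), and 6 fell in HDAC2, among them *Chek1*, which encodes CHK1 (-0.69, SE 0.14, adjusted p 0.00404). *Atr*, the replication stress kinase, went the other way in the Mef2 groups, where *Mcm2* and *Rrm2* fell. It rose in Mef2c (1.15, SE 0.12, adjusted p 1.01e-05) and Mef2d (0.95, SE 0.12, adjusted p 0.000111), and by less in HDAC1 (0.37, SE 0.12, adjusted p 0.0485).

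Regulators of the RB and E2F pathway were called in both directions. Of 17, 6 rose in Dyrk1 and 0 fell, among them *Rbl1*, which encodes the RB relative p107 (0.56, SE 0.06, adjusted p 7.98e-05), and *E2f2* (0.84, SE 0.12, adjusted p 0.000902). In HDAC2 5 fell and 1 rose, *Mybl2* (-0.85, SE 0.19, adjusted p 0.00631) being among the falls. The gene that rose was *Rbl2*, which encodes p130, the RB relative of resting cells. It was at 55.6 ± 2.71 FPKM in Mef2c-labelled and 49.7 ± 3.63 FPKM in Mef2d-labelled libraries, against 28 ± 1.23 FPKM in wild type (SD, n = 3 each). It rose in Mef2c (0.96, SE 0.08, adjusted p 1.23e-06), Mef2d (0.81, SE 0.08, adjusted p 1.29e-05), HDAC2 (0.38, SE 0.08, adjusted p 0.00517) and HDAC1 (0.36, SE 0.08, adjusted p 0.0125).

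Of 15 G1 cyclins, kinases and inhibitors, 4 rose and 1 fell in Dyrk1, and 2 fell in HDAC2, where the falls are near the share of all genes. The CDK4 and CDK6 inhibitor gene *Cdkn2c* moved in the direction of the replication genes, rising in Dyrk1 (1.03, SE 0.14, adjusted p 0.000679) and falling in HDAC2 (-0.52, SE 0.14, adjusted p 0.0188). *Cdkn1a*, which encodes the inhibitor p21, also rose in Dyrk1 (0.92, SE 0.20, adjusted p 0.00782). *Ccnd3*, the D-type cyclin, fell in Mef2c (-0.30, SE 0.05, adjusted p 0.00132) and Mef2d (-0.26, SE 0.05, adjusted p 0.00405).

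Nucleotide metabolism genes outside the 41 were mostly called lower in HDAC2 and Mef2d, and *Rrm2b* went against its paralog *Rrm2*. Of 20 genes, 11 fell and 2 rose in HDAC2, 11 fell and 1 rose in Mef2d, 4 fell and 2 rose in Mef2c, and 1 rose and 2 fell in Dyrk1, where the counts are near the shares of all genes. *Dctpp1*, a pyrophosphatase that clears excess nucleotides, fell in Mef2d (-0.82, SE 0.14, adjusted p 0.00168) and HDAC2 (-0.79, SE 0.14, adjusted p 0.00289). *Rrm2b*, the reductase subunit used outside S phase and induced by p53, rose in all 5 comparisons with wild type, which share the wild-type libraries, by 0.35 in HDAC1 to 0.56 in HDAC2. In HDAC2 the difference was 0.56 (SE 0.09, adjusted p 0.00238), where *Rrm2* had the largest fall of the 40 tested genes on the log2(FPKM + 1) scale.

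**Figure D5:**
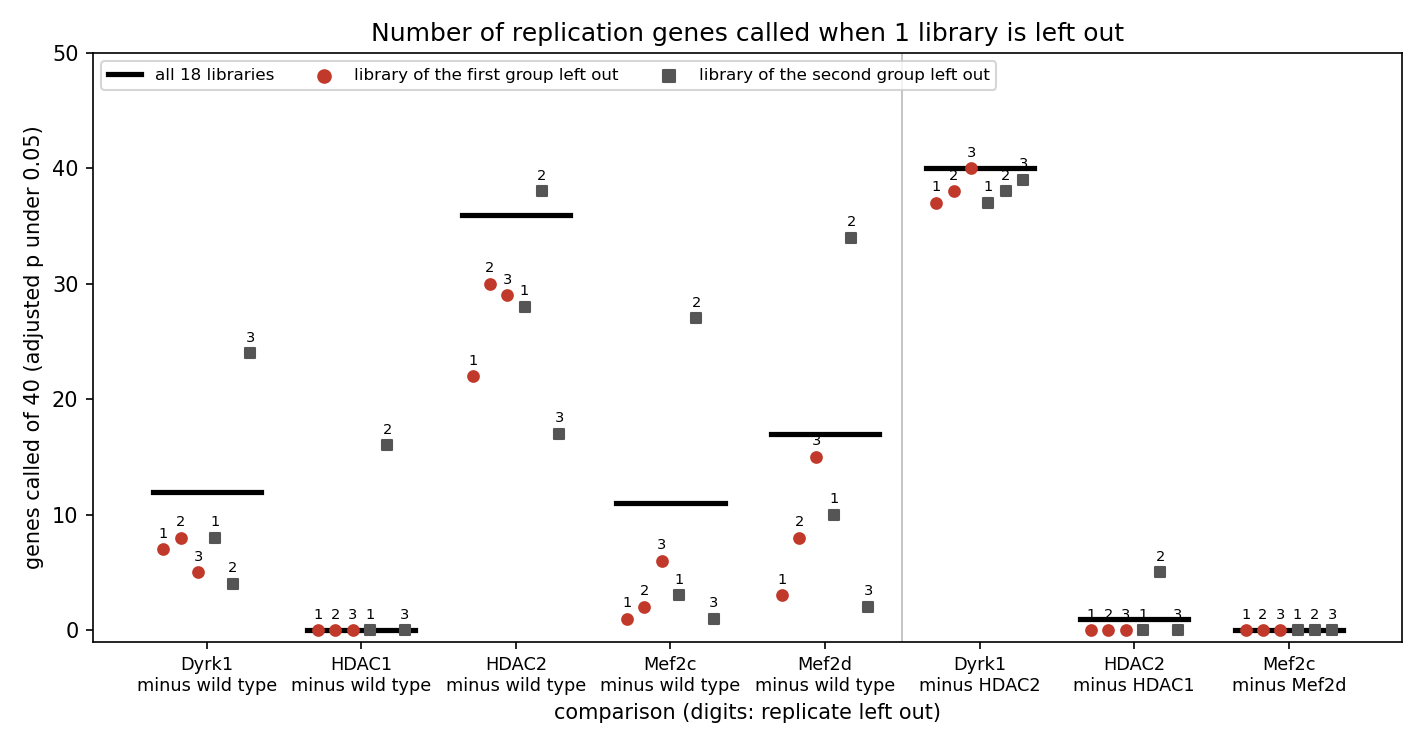
Number of the 40 tested genes with an adjusted p under 0.05 in 8 comparisons, with all 18 libraries (black bars) and with 1 library left out (circles: first group named, squares: second group, digits: replicate). Leaving out wild-type replicate 2 gives the most calls in the HDAC1, HDAC2, Mef2c and Mef2d comparisons and the fewest in that of Dyrk1, leaving out wild-type replicate 3 gives the most in that of Dyrk1 and the fewest in that of HDAC2, and the Dyrk1 minus HDAC2 count stays between 37 and 40.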

How the data were processed

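Reads were aligned with STAR and counted with HTSeq on build mm10, per the submitters' processing notes, and their versions and the strand setting are not given in the sources used here. The deposited table held 1 value per gene and library whose header names no unit. It was taken as FPKM made by the authors because low values are whole multiples of a per-library step, which also gave the read counts and depths printed here. From there, log2(FPKM + 1) was fitted with limma 3.58.1 in R 4.3.3 with a mean for each of the 6 groups and an intensity trend. A gene entered where 3 or more libraries reached 1 FPKM, 12223 in all, and p-values were adjusted by the Benjamini-Hochberg method over all of them. The p-values are two-sided. On simulated data with known changes, the fit recovered 26%, 80%, 100% and 100% of genes changed by 1.25, 1.5, 2 and 4-fold (50 genes each, Dyrk1 against wild type). Of its 169 calls 9.47% were on unchanged genes. The simulation set 1 spread for all groups and changed only genes with many reads. In wild type the replication genes had a median SD of 0.296, against 0.109 for all genes, so these rates need not hold for them.

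The 41 genes, the other lists and the comparisons were chosen with earlier results of these data known. Values in every library were given for the gene of highest mean in each role and for up to 6 called genes of smallest p in each comparison with wild type. From each other list up to 3 called genes of smallest p could be named. *Cdc6*, *Cdt1*, *Mcm4*, *Rfc4* and *Chaf1a* were added after their values were seen. Promoter sequences are from RefSeq, build GRCm38.p6.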

Additional observations from a re-analysis of the deposited data

How the results depend on the processing

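The 117 calls on single genes were refitted 1632 times, with 0 reversals, 1313 calls kept and 319 lost: 63 in Dyrk1, 78 in HDAC2, 70 in Mef2c, 80 in Mef2d, 11 between HDAC2 and HDAC1 and 17 between Dyrk1 and HDAC2. Calls lost under 8 of 14 settings included the falls of *Pold1*, *Lig1* and *Rfc4* in Mef2d and of *Mcm6*, *Tk1* and *Uhrf1* in Mef2c. The Dyrk1 minus HDAC2 count (37 to 40 with any 1 library left out) and the count over all 6 groups (38 to 39) stayed within 1.5 times their value in every setting run. The Mef2c minus Mef2d count was 0 throughout. The remaining counts moved further. Fitting only the 6 libraries compared gave 0 calls in Dyrk1, 22 in HDAC2, 1 in Mef2c, 4 in Mef2d and 0 between HDAC2 and HDAC1. Over all genes the calls in these fits were 62 of 11426 in Dyrk1 and 2693 of 11510 in HDAC2. They were 1355 of 11575 in Mef2c, 1895 of 11517 in Mef2d and 97 of 11653 between HDAC2 and HDAC1. With no filter on low values there were 5 calls in Dyrk1, 4 in Mef2c and 0 between HDAC2 and HDAC1. Of all 23799 genes then fitted, 1530 were called in Dyrk1, 2119 in Mef2c and 197 between HDAC2 and HDAC1. Without the 3 libraries highest in B cell markers there were 5 in Dyrk1, 1 in Mef2c, 2 in Mef2d and 0 between HDAC2 and HDAC1. Of all 12075 genes there, 2411 were called in Dyrk1, 1307 in Mef2c, 1467 in Mef2d and 163 between HDAC2 and HDAC1. Median-ratio scaling gave 2 calls in HDAC1. Between HDAC2 and HDAC1 it gave 0, as did a pseudocount of 0.1 and a minimum of 5 FPKM, while removing length and GC trends gave 2.

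With 1 library left out, the Dyrk1 count ranged from 4 to 24 and that of HDAC1 from 0 to 16. The HDAC2 count ranged from 17 to 38, the Mef2c count from 1 to 27, the Mef2d count from 2 to 34 and that between HDAC2 and HDAC1 from 0 to 5. The fewest and most came without wild-type replicates 2 and 3 in Dyrk1, and 3 and 2 in HDAC2 and Mef2d. The median log2 difference lay between 0.173 and 0.457 for Dyrk1, between -0.315 and -0.049 for HDAC1, between -0.705 and -0.411 for HDAC2, between -0.515 and -0.199 for Mef2c and between -0.572 and -0.244 for Mef2d, and kept its sign in every comparison.

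The replicate numbers were not shown to pair the libraries: over 45 pairs with the same number the correlation of deviations ran from -0.453 to 0.464, and 6 of 18 libraries correlated best with their own number. With a replicate block there were 15 calls in Dyrk1, 1 in HDAC1, 35 in HDAC2, 12 in Mef2c, 19 in Mef2d and 3 between HDAC2 and HDAC1. The cause of these shifts was not tested.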
